A study of Mus musculus with 6 samples.

Results

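The comparison set Th17 cells given either of 2 ADAR2 constructs against Th17 cells given the empty retrovirus, and it used all 6 of the 6 libraries in the study. The members were chosen by their labels alone: 2 libraries of active ADAR2 (ADAR2_WT), 2 of ADAR2_E396A, an enzymatically dead form with alanine in place of a catalytic glutamate, and 2 of the MSCV empty vector. For each gene the mean of the 4 ADAR2 libraries was compared with the 2 empty-vector libraries, which asks what moved with the protein whether or not it could deaminate RNA. The mean contrast can also be passed by a gene that moves with only 1 construct. For every gene that passed, the values with each construct are therefore given on their own. Most other named genes are shown in the same way, and some only as a range over libraries.

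All cells were naive CD4+ T cells from 2 wild-type mice, of animals used at 8 to 12 weeks of age. They were activated with anti-CD3ε at 0.25 µg/mL and anti-CD28 at 1 µg/mL in 0.1 ng/mL TGF-β and 20 ng/mL IL-6, transduced with an MSCV retrovirus at 24 h, and kept for 48 h more in 0.3 ng/mL TGF-β and 20 ng/mL IL-6 until 72 h. MSCV is a murine stem cell virus vector whose promoter drives its insert in every transduced cell, and the controls went through the same transduction. The share of cells transduced, any sorting, the marker carried by the vector and the species of the ADAR2 cDNA are not stated in the labels. Each mouse gave 1 library of each kind, and the mice are called donor A and donor B. The libraries were joined into donors by the pairing under which a refit gave the authors' deposited test statistics, and values are given with donor A first.

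ADAR2, encoded by Adarb1, binds double-stranded RNA through a pair of double-stranded RNA-binding domains and converts adenosine to inosine through a deaminase domain. A deaminase-dead form can still bind RNA and can occupy structures that other double-stranded RNA-binding proteins would use. In activated T cells, double-stranded RNA is also sensed by cytosolic receptors such as MDA5 and PKR, which sit upstream or downstream of the interferon response, and Th17 cells are defined by the cytokines IL-17A and IL-17F.

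Adarb1, on chromosome 10 at 77290726 to 77418270 (mm10, minus strand), was read first because it checks the labels. In normalized counts it stood at 3687 and 3346 in the controls, 18499 and 19077 with ADAR2_WT, and 15709 and 14982 with ADAR2_E396A. A normalized count is the number of reads on a gene divided by a library factor that puts the 6 libraries on one scale. All 4 ADAR2 libraries were above both controls, by 2.27 on the log2 scale (SE 0.06, limma adjusted p = 1.11e-06), which is a 4.83-fold difference. Reads from the transgene and from the endogenous gene could not be told apart, and gene counts do not distinguish the active from the dead form, so that difference rests on the labels. ADAR2_WT was above ADAR2_E396A by 0.29 (95% interval 0.14 to 0.44), so the constructs were not at the same level of Adarb1 reads. The related deaminase gene Adar stood at 2252 and 2682 in the controls, 2648 and 3237 with ADAR2_WT, and 2340 and 2864 with ADAR2_E396A, and it did not pass (0.16, SE 0.06, limma adjusted p = 0.506).

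Depth was even across the study, with 16496328 to 21897166 reads on genes per library. One gene annotated as a long noncoding RNA at ribosomal DNA sequence, Gm26917, took 10.5% and 9.85% of reads in the controls. It took 8.68% to 9.57% in the ADAR2 libraries and was lower in all 4 of them without passing (-0.20, limma adjusted p = 0.652). The part of ribosomal RNA in its reads was not tested. Donor was the first axis of variation, with 38.2% of the variance on a component that separated the mice. Differences from the control of the same donor were little alike between the mice over the 14958 genes tested. Their Pearson correlation between donors was 0.07 for the mean of both constructs, 0.28 for ADAR2_WT and -0.09 for ADAR2_E396A. With 2 mice as the replicates, the p-values come from limma, which pools information on the spread over genes.

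Of 14958 genes tested, 10 passed at an adjusted p under 0.05, which is 0.0669% of them. There were 7 higher (0.0468%) and 3 lower (0.0201%) with the ADAR2 constructs. Besides Adarb1, the higher genes were the double-stranded RNA-binding zinc finger gene Zfr, the interferon regulatory factor Irf7, both mitochondrial ribosomal RNAs, the pseudogene Gm8835 and the 5.8S ribosomal RNA gene n-R5-8s1. The lower genes were the T cell surface glycoprotein gene Thy1, the histone variant gene H2afy and the ectoenzyme gene Bst1. In 8 of the 10, all 4 ADAR2 libraries lay outside the range of the controls, as they did in 10.7% of all genes tested (5.23% above and 5.48% below). At an unadjusted p under 0.05 there were 1211 genes, or 8.1%, of which 4.17% were higher and 3.92% lower.

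**Figure D1:**
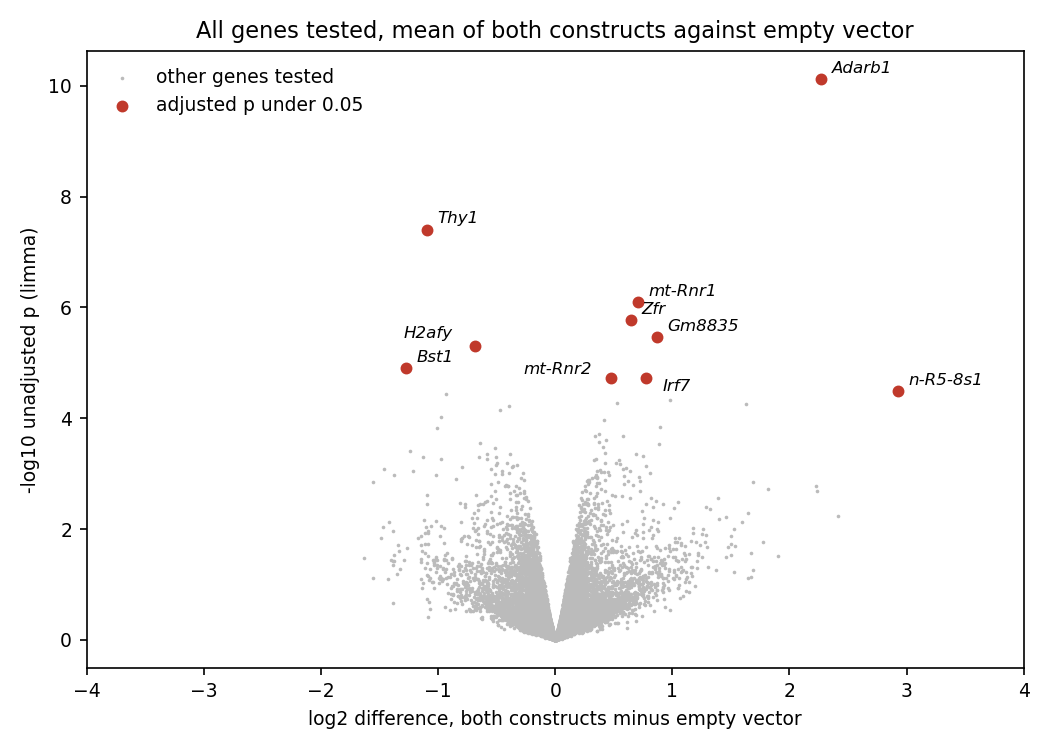
Each point is a gene, with the log2 difference of the mean of both constructs from empty vector on the x axis and -log10 of the unadjusted limma p on the y axis. The 10 genes with an adjusted p under 0.05 are red and named, and Adarb1 at 2.27 and Thy1 at -1.09 have the smallest p-values.

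The count depended on the ADAR2_WT libraries and on the model. Without the donor A library of ADAR2_WT it fell to 1 gene (Adarb1), and without the donor B library of ADAR2_WT to 2 genes (Adarb1 and Thy1). Leaving out 1 ADAR2_E396A library gave 172 (donor A) or 643 (donor B) genes, leaving out the donor B control gave 197, and leaving out the donor A control gave 10, of which 7 were shared with the 10. A fit without the donor term gave 2 genes, Adarb1 and Thy1. DESeq2 gave 42 genes that included all 10, and limma with a single prior variance for all genes gave 0, with 1096 at an unadjusted p under 0.05. Scaling by TMM factors gave 10 higher and 8 lower in place of 7 and 3.

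**Figure D2:**
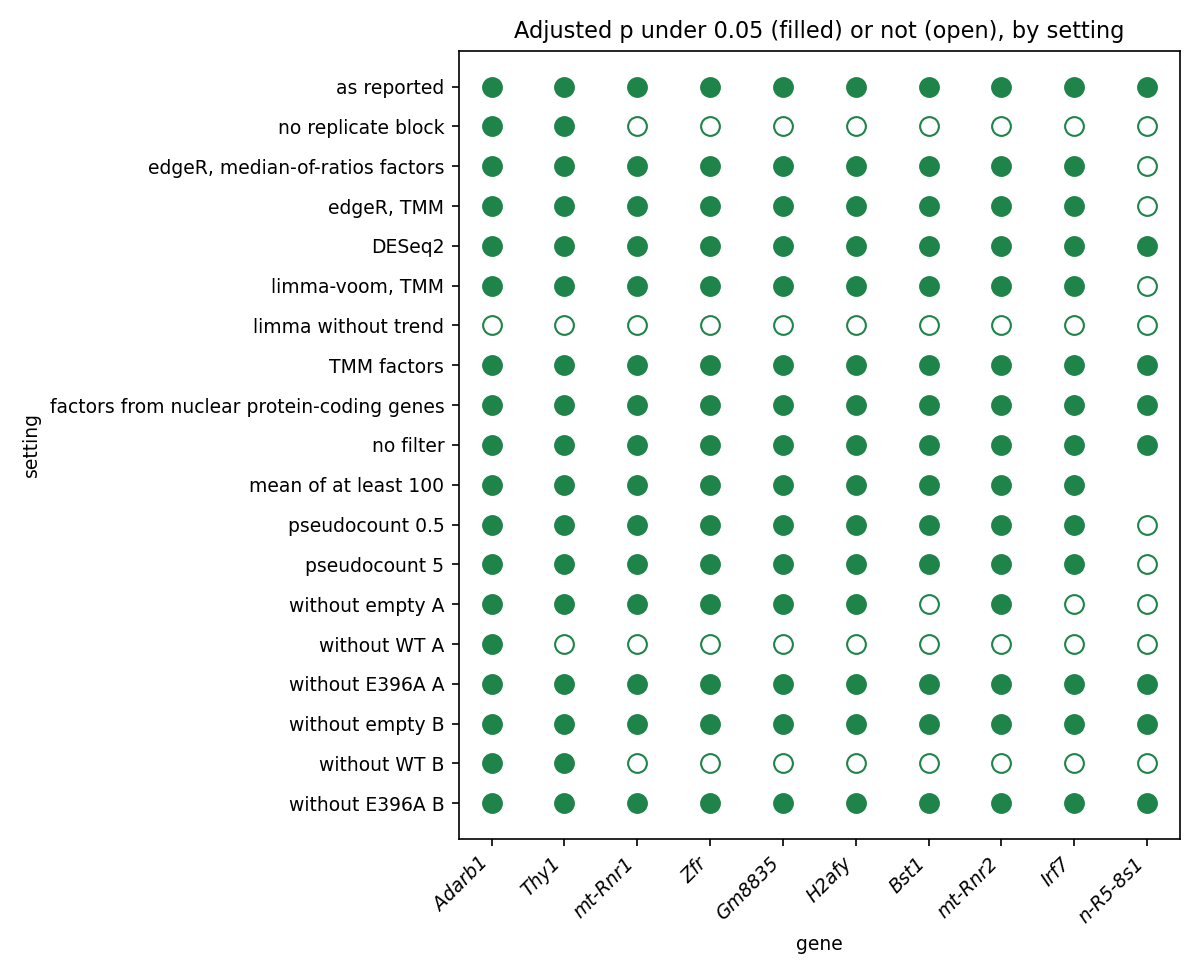
Rows are the fit as reported and 18 alternative settings, columns are the 10 genes, and a filled circle marks an adjusted p under 0.05 (an empty cell means that the gene was not tested). Adarb1 is filled in 17 of the 18 alternatives and n-R5-8s1 in 7 of the 17 in which it was tested.

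Zfr was the 1 double-stranded RNA-binding protein gene beside Adarb1 to pass. Its product is a zinc finger protein that binds double-stranded RNA and is known to influence splicing and ADAR editing. The gene, on chromosome 15 at 12117831 to 12185683, stood at 2730 and 3000 normalized counts in the controls, 4671 and 4778 with ADAR2_WT, and 4134 and 4352 with ADAR2_E396A. All 4 ADAR2 libraries were above both controls and the donors were alike, at 0.69 in donor A and 0.60 in donor B. The difference was 0.65 on the log2 scale (SE 0.06, 95% interval 0.52 to 0.77, limma adjusted p = 0.0063). ADAR2_E396A alone stood 0.57 above the control, and ADAR2_WT exceeded it by 0.01 to 0.30 (95% interval).

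The gene lists here and below were chosen with earlier results of these data known. Counts of their members beside the shares of all genes therefore describe the lists and are not a test of them. The list of double-stranded RNA-binding protein genes lay on both sides of the controls. Of 18 tested, 2 were higher, Zfr included, and 2 lower at an unadjusted p under 0.05, against 4.17% and 3.92% of all genes, and the median difference was 0.00. Dicer1, which encodes the microRNA-processing nuclease, was level at 2947 to 3093 in all 6 libraries. Genes whose transcripts are known recoding targets of ADAR enzymes gave 1 higher and 0 lower of 14 tested, with a median of -0.01. Cog3, a Golgi complex subunit gene, was the 1 recoding target at an unadjusted p under 0.05, at 1173 and 1295 in the controls, 1256 and 1308 with ADAR2_WT, and 1513 and 1627 with ADAR2_E396A (limma adjusted p = 0.454).

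Thy1 encodes CD90, a glycosylphosphatidylinositol-anchored glycoprotein of the T cell surface. On chromosome 9 at 44043384 to 44048579, it stood at 24405 and 21511 normalized counts in the controls, 10443 and 9635 with ADAR2_WT, and 11454 and 11576 with ADAR2_E396A. Both constructs were therefore well below both controls, in both donors. Thy1 fell by 1.09 on the log2 scale (SE 0.06, limma adjusted p = 0.000296), by 1.16 in donor A and 1.03 in donor B. The 95% interval of ADAR2_WT minus ADAR2_E396A was -0.35 to -0.04, inside a 1.5-fold change. Some retroviral vectors carry a Thy1 allele as a marker, and reads from such a marker, if present, and from the endogenous gene cannot be told apart here.

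Other T cell surface genes were read as lists. Among 22 genes of the T cell receptor complex and T cell surface glycoproteins, 0 were higher and 4 lower at an unadjusted p under 0.05, Thy1 included, where 4.17% of all genes were higher and 3.92% lower, and the median was -0.09. Cd3e, a signalling chain of the receptor complex, stood at 4761 and 4184 in the controls and 3747 to 4464 in the ADAR2 libraries (-0.12, limma adjusted p = 0.668). Cd4 stood at 16063 and 13201 in the controls and 12063 to 13734 with ADAR2 (-0.15, limma adjusted p = 0.625). Among 17 genes of glycosylphosphatidylinositol-anchored surface proteins, 1 was higher and 4 lower (4.17% and 3.92% of all genes), and 2 of these, Thy1 and Bst1, passed. The median of these 17 genes was -0.11, with -0.20 for ADAR2_WT and 0.01 for ADAR2_E396A.

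Bst1 passed the mean contrast through 1 construct. It encodes CD157, an anchored ADP-ribosyl cyclase, and lies on chromosome 5 at 43818885 to 43843986. It stood at 362 and 121 normalized counts in the controls, 72.1 and 26.6 with ADAR2_WT, and 296 and 95.4 with ADAR2_E396A, so the groups overlapped across donors. Within each donor ADAR2_WT was far below the control while ADAR2_E396A was slightly below it. The mean difference was -1.27 (SE 0.14, limma adjusted p = 0.0264), made of -2.23 with ADAR2_WT and -0.32 with ADAR2_E396A, and only for this gene of the 10 did the 95% interval of the ADAR2_E396A difference include 0. The difference between the constructs was itself past the threshold at -1.91 (95% interval -2.28 to -1.54, limma adjusted p = 0.0116), which 0.0669% of genes passed in that contrast. Without the donor A control, Bst1 no longer passed the mean contrast.

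H2afy encodes macroH2A1, a histone H2A variant with a large carboxy-terminal macrodomain that is found in repressed chromatin. The gene lies on chromosome 13 at 56073619 to 56136361 and overlaps the antisense gene model Gm47071. The labels do not say whether counting used strand, so reads of the overlapping models may not be separated. It stood at 8704 and 6320 normalized counts in the controls, 4680 and 3881 with ADAR2_WT, and 5302 and 4687 with ADAR2_E396A. All 4 ADAR2 libraries were below both controls. H2afy fell by 0.69 on the log2 scale (SE 0.07, limma adjusted p = 0.0125), by 0.80 in donor A and 0.57 in donor B, and the interval of ADAR2_WT minus ADAR2_E396A was -0.40 to -0.05.

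Both ribosomal RNAs of the mitochondrial genome were higher. mt-Rnr1, the 12S RNA of the small mitochondrial ribosomal subunit, stood at 3372 and 2734 normalized counts in the controls, 6462 and 4945 with ADAR2_WT, and 4984 and 3768 with ADAR2_E396A. mt-Rnr2, the 16S RNA of the large subunit, stood at 39171 and 32790, then 57922 and 48134, then 52562 and 42000. Within each donor, ADAR2_WT was highest, ADAR2_E396A in between and the control lowest for both RNAs. The differences were 0.70 (SE 0.05, limma adjusted p = 0.00401) for mt-Rnr1 and 0.47 (SE 0.06, limma adjusted p = 0.0318) for mt-Rnr2. The libraries were depleted of ribosomal RNA, and the 2 RNAs took 0.213% and 0.185% of reads in the controls and 0.239% to 0.328% in the ADAR2 libraries. The part of depletion efficiency in these differences was not tested.

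No protein-coding transcript of the mitochondrial genome passed, although most lay on the higher side. Of the 10 members of the mitochondrial genome list that could be tested, of 15, 9 were higher and 0 lower at an unadjusted p under 0.05 (4.17% and 3.92% of all genes). All ADAR2 libraries were above the controls for 8 of the 10, against 5.23% of all genes. The list's median was 0.43, with 0.55 for ADAR2_WT and 0.27 for ADAR2_E396A, where the median of all genes was -0.01. mt-Nd2, a subunit of respiratory complex I, stood at 730 and 884 in the controls, 1463 and 1485 with ADAR2_WT, and 1032 and 917 with ADAR2_E396A (0.58, limma adjusted p = 0.138). mt-Nd4, another complex I subunit, stood at 1061 and 879, then 1483 and 1315, then 1237 and 1192 (0.43, limma adjusted p = 0.156). mt-Co1, the core subunit of cytochrome oxidase, was the 1 tested member with no such difference, at 21699 and 14979 in the controls and 16407 to 19416 with ADAR2 (0.01, limma adjusted p = 0.991). The genes of 1 mitochondrial genome share their transcripts' processing and are not independent of each other.

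Irf7 is the interferon regulatory factor that amplifies type I interferon production, and it is itself induced by interferon. On chromosome 7 at 141262706 to 141266481, it stood at 168 and 367 normalized counts in the controls, 323 and 752 with ADAR2_WT, and 250 and 542 with ADAR2_E396A. Donor B had about the level in its control that donor A reached with ADAR2_WT, so the groups overlapped, while within each donor both constructs were above the control. The difference was 0.77 (SE 0.09, 95% interval 0.57 to 0.98, limma adjusted p = 0.0318), at 0.75 in donor A and 0.80 in donor B. ADAR2_E396A alone stood 0.57 above the control, and ADAR2_WT exceeded it by 0.18 to 0.66 (95% interval). Without the donor A control, Irf7 no longer passed.

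Interferon-stimulated genes beside Irf7 were on the higher side without passing one by one. Of 39 tested, 22 were higher and 0 lower at an unadjusted p under 0.05 (4.17% and 3.92% of all genes), 37 had a positive difference (47.9% of all genes did), and only Irf7 passed. The median was 0.28, with 0.38 for ADAR2_WT and 0.17 for ADAR2_E396A. By library, the medians were 0.26 and 0.59 for ADAR2_WT and 0.09 and 0.27 for ADAR2_E396A. Isg15, a ubiquitin-like protein gene, stood at 68.0 and 166 in the controls, 159 and 445 with ADAR2_WT, and 103 and 212 with ADAR2_E396A (0.89, limma adjusted p = 0.112). Ifi27l2a, an interferon-induced membrane protein gene, stood at 1059 and 1248, then 1622 and 2054, then 1276 and 1779, with all ADAR2 libraries above the controls (0.53, limma adjusted p = 0.0589). Ifit1, which encodes a protein that binds the 5′ end of foreign RNA, stood at 97.3 and 209, then 142 and 427, then 116 and 285 (0.57, unadjusted p = 0.00254 in limma).

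Sensors of double-stranded RNA lay mostly on the same side, and 7 of the tested ones are also on the interferon-stimulated list. Of 13 tested, 11 differences were positive (47.9% of all genes) and 2 negative, with a median of 0.28. At an unadjusted p under 0.05, 8 were higher and 0 lower (4.17% and 3.92% of all genes), and 0 passed. Ifih1, encoding the cytosolic sensor MDA5, stood at 568 and 1029 in the controls, 866 and 1486 with ADAR2_WT, and 615 and 1264 with ADAR2_E396A (0.39, limma adjusted p = 0.212). Eif2ak2, encoding the kinase PKR, stood at 1748 and 2162, then 2217 and 3334, then 1861 and 2793 (0.36, limma adjusted p = 0.219). Zbp1, encoding a sensor of Z-form nucleic acid, stood at 870 and 1153, then 1137 and 1729, then 994 and 1342 (0.35, limma adjusted p = 0.215). Within each donor the control was the lowest of the 3 libraries for all 3 genes.

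The promoters of these genes were read for the letters of an interferon-stimulated response element, GAAANNGAAA, on both strands in the 250 bases before the RefSeq start of each gene (GRCm38.p6). Some genes have more than 1 start in the table, and a gene was counted when any of its windows held the motif. It was found for 14 of 29 tested interferon-stimulated genes (48.3%), against 327 of 10166 tested genes with a promoter in the table (3.2%) and 936 of 27025 genes in all (3.5%). The list was chosen as interferon-stimulated, so this share describes the list and not its response here. Shown are Irf7, which passed and has no match, Isg15 with 3 overlapping matches from position -78, and Ifit1 with 2 matches on the opposite strand. Capitals mark the matches, and the windows are chr7:141266425-141266674 (minus strand), chr4:156200819-156201068 (minus strand) and chr19:34640639-34640888 (plus strand).
Irf7: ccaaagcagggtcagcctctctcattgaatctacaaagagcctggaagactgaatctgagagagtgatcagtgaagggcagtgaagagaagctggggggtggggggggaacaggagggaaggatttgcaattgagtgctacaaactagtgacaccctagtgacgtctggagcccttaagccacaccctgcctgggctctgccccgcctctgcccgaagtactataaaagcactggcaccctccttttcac
Isg15: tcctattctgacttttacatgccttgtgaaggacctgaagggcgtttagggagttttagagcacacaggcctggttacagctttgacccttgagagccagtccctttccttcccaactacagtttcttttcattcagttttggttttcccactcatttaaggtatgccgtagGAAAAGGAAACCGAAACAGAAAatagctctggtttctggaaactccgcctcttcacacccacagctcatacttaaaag
Ifit1: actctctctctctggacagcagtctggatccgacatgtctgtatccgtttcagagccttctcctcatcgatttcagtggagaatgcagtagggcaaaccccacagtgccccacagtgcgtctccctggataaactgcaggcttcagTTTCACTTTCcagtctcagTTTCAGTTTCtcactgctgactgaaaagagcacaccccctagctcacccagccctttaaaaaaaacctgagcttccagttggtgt

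Gm8835 and n-R5-8s1 complete the 10 and are uncertain, because their reads can come from near-identical copies. The rule for naming genes leaves out predicted genes, pseudogenes and genes of low mean, so both were picked after their values were seen. Gm8835, an unprocessed pseudogene on chromosome 17 at 36201996 to 36206339, stood at 497 and 476 normalized counts in the controls, 1238 and 1018 with ADAR2_WT, and 778 and 635 with ADAR2_E396A (0.87, SE 0.08, limma adjusted p = 0.0103). ADAR2_WT was above ADAR2_E396A by 0.68 (95% interval 0.46 to 0.89). The ribosomal RNA gene n-R5-8s1 stood at 6.27 and 0.978 in the controls, 98.5 and 30.1 with ADAR2_WT, and 19.8 and 9.63 with ADAR2_E396A. Its adjusted p was 0.0479 in limma, and it did not pass with edgeR, with voom or with a pseudocount of 0.5 or 5 in place of 1.

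**Figure D3:**
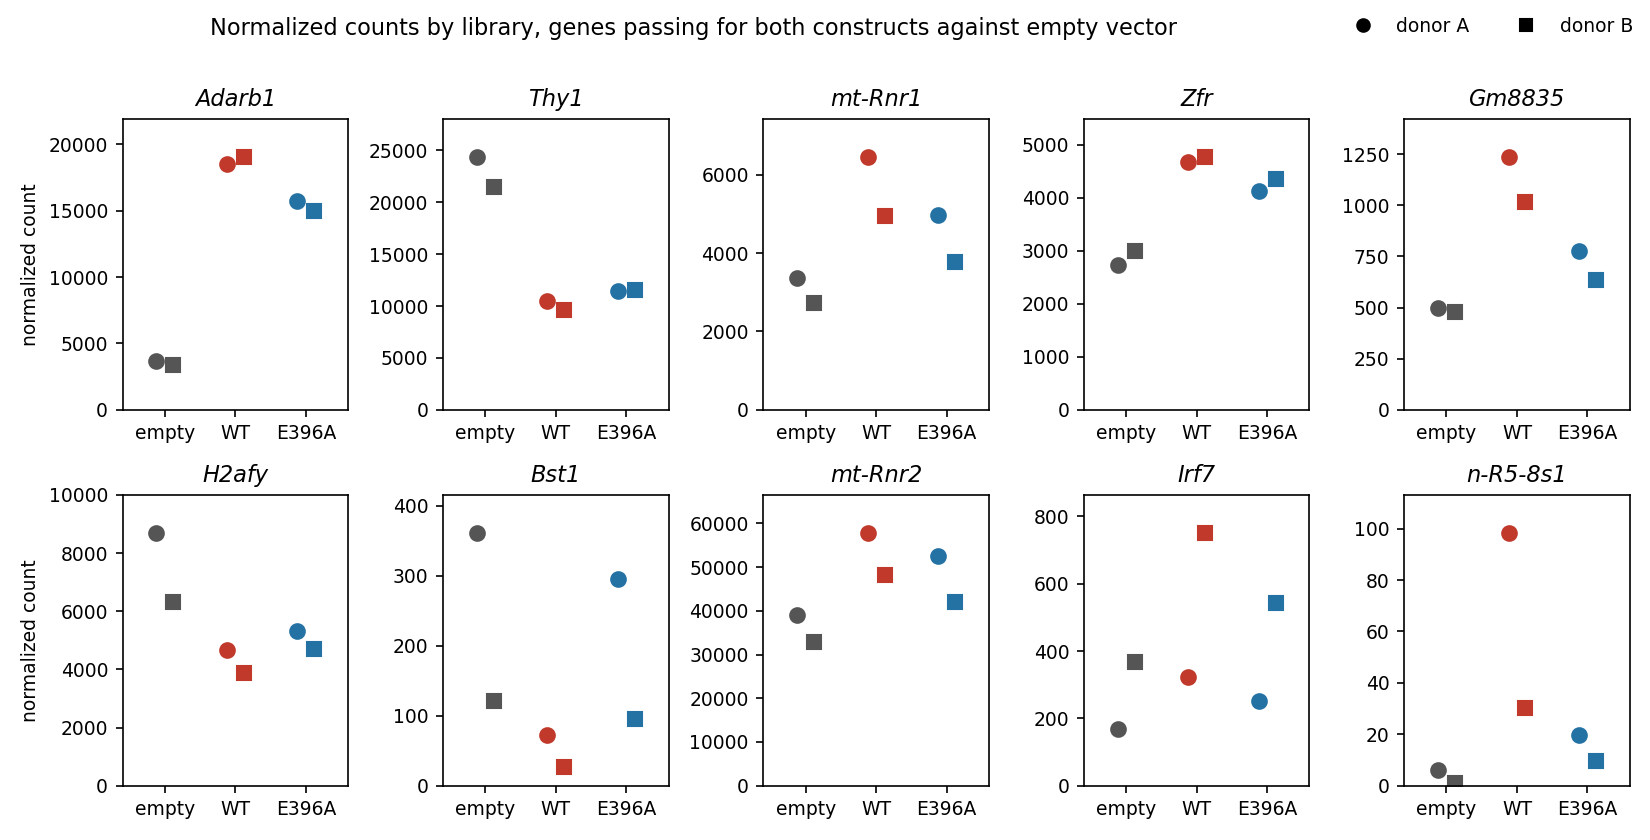
Each panel is one of the 10 genes that passed, with the group on the x axis and the normalized count on a linear y axis from 0. Each point is 1 library, with circles for donor A and squares for donor B. In 8 panels all ADAR2 libraries lie outside the controls' range, and in those of Bst1 and Irf7 the donors differ in level and the groups overlap.

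How alike the constructs were was asked next for the 10 genes. For 6 of them, Adarb1, Thy1, mt-Rnr1, Zfr, H2afy and mt-Rnr2, the 95% interval of ADAR2_WT minus ADAR2_E396A lay within a 1.5-fold change in either direction, as it did for 59.2% of all genes. That interval, unadjusted over genes, still left out 0 in each of the 6, and in each the larger difference from the control was with ADAR2_WT. The ADAR2_E396A difference ranged in size from 0.39 (mt-Rnr2) to 2.13 (Adarb1) over these 6. Irf7 and Gm8835 had intervals that reached beyond 1.5-fold, and that of n-R5-8s1, 0.94 to 2.87 around 1.90, lay wholly beyond it. Irf7, Gm8835 and n-R5-8s1 did not pass as different between constructs, at adjusted p values of 0.188, 0.0678 and 0.161 in limma. The difference in Adarb1 itself, 0.29, moved with the construct in the same libraries, and its part in these differences was not tested.

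**Figure D4:**
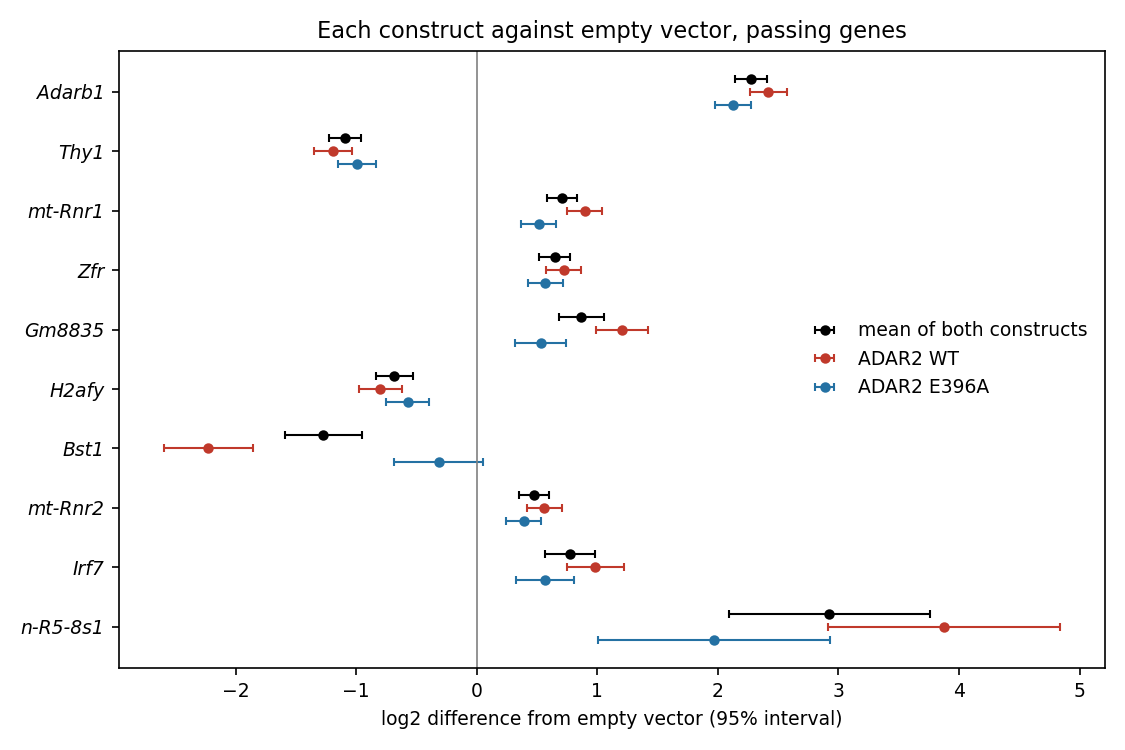
Points are log2 differences from empty vector with 95% intervals for the 10 genes that passed, for the mean of both constructs (black), ADAR2_WT (red) and ADAR2_E396A (blue). For 9 genes both constructs' intervals lie on the same side of 0, and for Bst1 the ADAR2_E396A interval, around -0.32, includes 0.

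The genes nearest to the threshold were read as values, since 18 genes had an adjusted p under 0.1. They too were picked after their values were seen, apart from Nkg7. Mgea5, which encodes the O-GlcNAc-removing enzyme OGA, stood at 6057 and 6050 normalized counts in the controls, 4355 and 4541 with ADAR2_WT, and 4625 and 4919 with ADAR2_E396A (-0.39, limma adjusted p = 0.0607). Dmtn, encoding the actin-bundling protein dematin, stood at 2014 and 2058, then 1450 and 1323, then 1547 and 1571 (-0.47, limma adjusted p = 0.0664). In both genes every ADAR2 library was below every control. Cd36, a scavenger receptor gene, stood at 178 and 271 in the controls, 82.9 and 146 with ADAR2_WT, and 97.9 and 129 with ADAR2_E396A (-0.98, limma adjusted p = 0.0828). Its interval between constructs was -0.40 to 0.34, centred closer to 0 than that of any of the 10. Myh11, a smooth muscle myosin gene, was higher by 1.63 (limma adjusted p = 0.0589), at 28.2 and 37.2 in the controls, 146 and 182 with ADAR2_WT, and 42.5 and 96.3 with ADAR2_E396A. Nkg7, a cytotoxic granule gene, stood at 638 and 232, then 202 and 85.7, then 544 and 173 (-0.93, limma adjusted p = 0.0503), with -1.54 from ADAR2_WT and -0.32 from ADAR2_E396A.

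Genes of proliferation lay slightly on the higher side. Of 21 mitosis genes, 13 were higher and 0 lower at an unadjusted p under 0.05 (4.17% and 3.92% of all genes), while 0 passed. All 21 differences were positive (47.9% of all genes), and 10 had all ADAR2 libraries above the controls (5.23% of all genes). The median was 0.20, with 0.24 for ADAR2_WT and 0.16 for ADAR2_E396A, but 0.30 in donor A and 0.09 in donor B. Cenpe, a kinetochore motor gene, stood at 2375 and 2598 in the controls, 3348 and 3083 with ADAR2_WT, and 2944 and 3022 with ADAR2_E396A (0.32, unadjusted p = 0.00118 in limma). Mki67, the proliferation antigen gene, stood at 11449 and 10490, then 13322 and 12812, then 12757 and 12588 (0.23, unadjusted p = 0.00212 in limma). For both genes every ADAR2 library was above every control. The 22 DNA replication genes were all positive too (47.9% of all genes), with a median of 0.10. Of these, 1 was higher and 0 lower at an unadjusted p under 0.05 (4.17% and 3.92% of all genes).

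The Th17 programme gave no gene that passed. Of 22 Th17 genes, 2 were higher and 2 lower at an unadjusted p under 0.05 (4.17% and 3.92% of all genes), with a median of 0.04. Il17a, the defining cytokine gene, stood at 2447 and 9317 normalized counts in the controls, 6629 and 17952 with ADAR2_WT, and 2626 and 18220 with ADAR2_E396A (0.86, SE 0.21, limma adjusted p = 0.311). Donor B had the higher level throughout, and with ADAR2_E396A the gene was near its control in donor A and well above it in donor B. Il17f stood at 6674 and 14503, then 10243 and 20801, then 5223 and 31505 (0.48, limma adjusted p = 0.677). Ccr6, the chemokine receptor of Th17 cells, stood at 630 and 931, then 340 and 821, then 328 and 1007 (-0.47, limma adjusted p = 0.548). Foxp3, the regulatory T cell factor, stood at 7.82 to 19.9 normalized counts over the 6 libraries.

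Th1, cytotoxic and CD94 genes lay on the lower side, with larger medians for ADAR2_WT than for ADAR2_E396A. Of 20 Th1 and cytotoxic genes, 0 were higher and 4 lower at an unadjusted p under 0.05 (4.17% and 3.92% of all genes), and the median was -0.27, made of -0.45 with ADAR2_WT and -0.06 with ADAR2_E396A. Tbx21, the Th1 master regulator, stood at 864 and 999 in the controls, 748 and 839 with ADAR2_WT, and 853 and 713 with ADAR2_E396A (-0.24, limma adjusted p = 0.608). Ifng stood at 234 and 214, then 181 and 101, then 401 and 142 (-0.32, limma adjusted p = 0.754). CD94 and NKG2 receptors, carried by NK cells and some T cells, recognise class I-like ligands. Their 6 tested genes had 4 lower (3.92% of all genes) and a median of -0.89, with -1.63 for ADAR2_WT and -0.15 for ADAR2_E396A. By library, the medians of these 6 genes were -1.91 and -1.25 for ADAR2_WT and -0.50 and 0.04 for ADAR2_E396A. Those of the 20 Th1 and cytotoxic genes were -0.55 and -0.15 for ADAR2_WT and -0.01 and -0.10 for ADAR2_E396A. Klrc1, encoding NKG2A, stood at 1056 and 997, then 240 and 322, then 700 and 1248 (-1.01, limma adjusted p = 0.113). Klrd1, encoding its partner CD94, stood at 174 and 110, then 18.5 and 34.8, then 105 and 109 (-1.38, limma adjusted p = 0.215).

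Of 15 naive and memory genes, 0 were higher and 5 lower at an unadjusted p under 0.05 (4.17% and 3.92% of all genes), with a median of -0.17 that was -0.29 in donor A and -0.04 in donor B. Foxp1, a transcription factor gene of T cell quiescence, stood at 1547 and 1770 in the controls, 1003 and 1454 with ADAR2_WT, and 1152 and 1495 with ADAR2_E396A (-0.39, limma adjusted p = 0.212). Of 23 genes of early activation, 12 differences were positive (47.9% of all genes) and 11 negative, with a median of 0.02. At an unadjusted p under 0.05, 0 were higher and 5 lower (4.17% and 3.92% of all genes). The lowest p of that list was that of Irf8, a factor that restrains the Th17 programme, which stood at 1625 and 1224, then 866 and 831, then 1095 and 1207 (-0.51, limma adjusted p = 0.213). Foxp1 and Irf8 were below the controls in all 4 ADAR2 libraries, though by little for Irf8 with ADAR2_E396A in donor B. Chemokine and chemokine receptor genes gave 2 higher and 6 lower of 18 (4.17% and 3.92% of all genes). Their median was -0.18, with -0.27 for ADAR2_WT and 0.04 for ADAR2_E396A, and -0.22 in donor A and near 0 in donor B. Ccr4, a receptor of Th2 and Th17 cells, stood at 4048 and 4795, then 5743 and 6124, then 4874 and 4942, all ADAR2 libraries above the controls (0.29, limma adjusted p = 0.225).

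**Figure D5:**
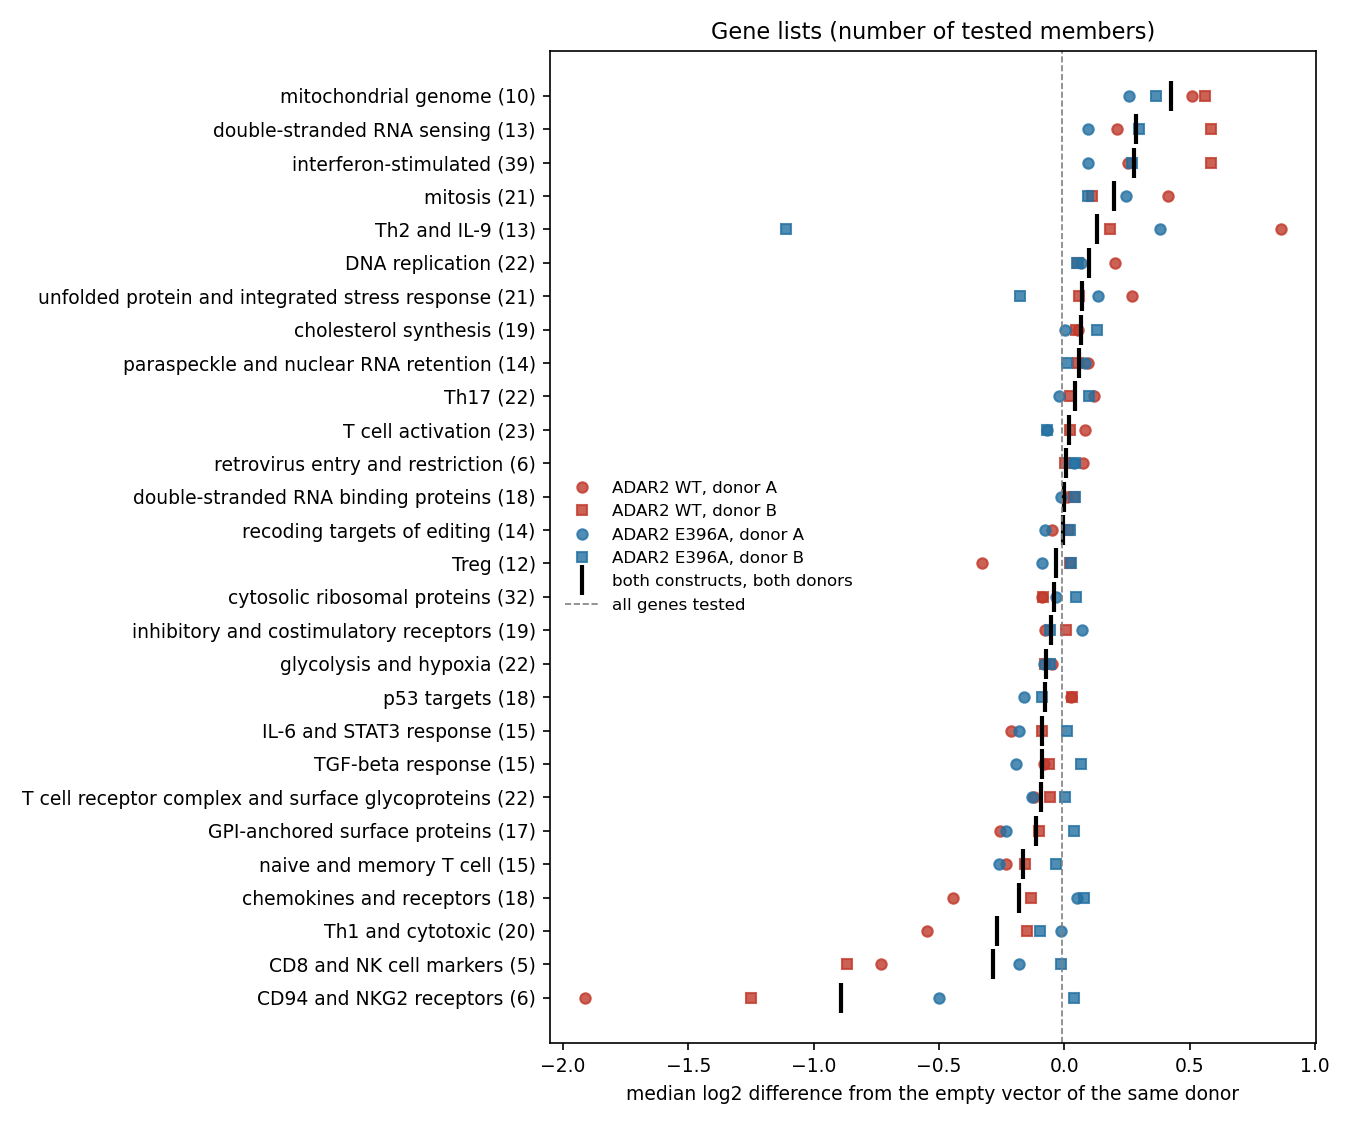
Rows are gene lists with their number of tested members, and points are the median log2 difference of each ADAR2 library from the control of its donor (red ADAR2_WT, blue ADAR2_E396A, circles donor A, squares donor B). Black bars are the median of the mean contrast, from 0.43 for the mitochondrial genome to -0.89 for CD94 and NKG2 receptors, and the dashed line is the median of all genes tested, -0.01.

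Markers of other cells were summed to see what the cultures held. The 8 CD8 and NK cell markers, of which 2 were at 0 in every library, summed to 509 to 637 normalized counts in the controls and 279 to 517 in the ADAR2 libraries. These ranges overlap, but each pools both donors, and the second also pools both constructs. With ADAR2_WT the largest falls were those of Klrk1 and Klrd1, both of which are also on the CD94 and NKG2 list. With ADAR2_E396A in donor B, Klrk1 (199.5 to 197.8) and Klrd1 (109.5 to 109.4) stayed near the control. Cd8a stood at 9.4 and 65.5 in the controls, 16.6 and 19.7 with ADAR2_WT, and 23.7 and 36.8 with ADAR2_E396A. Eomes stood at 13.6 and 21.5, then 7.8 and 11.6, then 20.8 and 19.3. Cd8b1 did not fall with ADAR2_WT, at 151 and 113 in the controls, 159 and 143 with ADAR2_WT, and 133 and 112 with ADAR2_E396A. The part of such cells in the lower cytotoxic and CD94 values was not tested, and in bulk RNA fewer cells of a type and less RNA per cell cannot be told apart. The 8 B cell markers summed to 796 to 1177 in the controls and 771 to 1331 with ADAR2, nearly all of it Ebf1, while Ms4a1 was at 0 in every library. The 12 myeloid markers summed to 66.9 to 87.0 and 55.4 to 89.3, and the 8 erythroid and platelet markers to 27.2 to 36.2 and 18.5 to 42.9. The 7 gamma-delta T cell markers summed to 53.3 to 64.5 in the controls and 65.3 to 109 with ADAR2, and the 11 stromal and epithelial markers to 229 to 340 and 237 to 371. Against these, Cd4 lay between 12063 and 16063 normalized counts in all 6 libraries.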

How the data were processed

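RNA-seq of 6 libraries was analysed from 2 tables that the authors deposited, 1 per construct, each with the control libraries of both donors. The build is mm10 and the tools are DESeq2 1.18.1, featureCounts and STAR 2.6.1a according to the submitters' processing notes, and per the labels ribosome-depleted RNA was amplified for 8 PCR cycles. The signal columns are the authors' normalized counts, reads divided by a size factor, as the deposited file headers and values show, so each column was divided by its smallest value above 0. This gave whole reads (within 0.001 of a read) for 100% of values. The authors' deposited log2 fold changes, Wald scores and p-values were used only for a check: a DESeq2 refit gave the deposited Wald statistics to within 0.0001 with the donors as paired here, and differed by up to 13.8 with the donors crossed. The column names do not say which labelled replicate each library is. A library present in both tables was read as empty vector, and the constructs were told apart by the name of the table. All 55450 gene IDs matched GENCODE vM21, and 0 library columns were left unmapped.

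Reads were rescaled over the 6 libraries by median-of-ratios factors, and genes kept by filterByExpr were tested as log2(normalized count + 1) in limma 3.58.1 (R 4.3.3) with group and donor terms, a mean-variance trend and Benjamini-Hochberg adjustment over 14958 genes, two-sided, at 0.05. The design allowed for raw counts, and normalized counts were found. A log2 difference of low genes is understated by the pseudocount. Alternatives used edgeR 4.0.16, DESeq2 1.42.0, voom, other factors, filters, pseudocounts and thresholds, no donor term and each library left out, and scripts were tested on simulated data. Named genes were fixed names, the 15 highest and 15 lowest passing genes with a mean of at least 50 (predicted genes, clones, pseudogenes and receptor segments left out), up to 6 passing members of each of 34 lists (or the 2 of lowest p), and passing genes with constructs within 1.5-fold or different. Exceptions are said to be so, and further list members given as examples were picked after their values were seen. The comparison and the lists were chosen with earlier results of these data known. Promoter sequences are RefSeq's. 1 further gene is not reported here.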

Additional observations from a re-analysis of the deposited data

Results flagged for a closer look

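For 4 of the named genes the constructs themselves differed at an adjusted p under 0.05 in limma, so that the mean contrast averages unlike values. ADAR2_WT minus ADAR2_E396A was -1.91 on the log2 scale for Bst1, -1.22 for Nkg7, -1.75 for Klrc1 and 2.13 for Il9. Against the control of the same donor, Il9 stood at 2.65 and 1.33 with ADAR2_WT and at 0.37 and -0.66 with ADAR2_E396A. Klrc1 stood at -2.13 and -1.63 with ADAR2_WT and at -0.59 and 0.32 with ADAR2_E396A.

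For 2 of the named genes both constructs lay on one side of the control in donor A and on the other in donor B, and this difference between donors was not tested. Cd68, a myeloid marker, differed by -0.94 between donors (A minus B): it stood at -0.70 and -0.41 in donor A and at 0.24 and 0.53 in donor B. Foxp3 differed by -1.13: it stood at -0.42 and -0.81 in donor A and at 0.64 and 0.38 in donor B. Both genes have low counts, and with 1 library per group in a donor there is no replicate within it.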

How the results depend on the processing

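For the mean of both constructs against empty vector, 10 genes passed. The count was 42 with DESeq2, 0 with limma without a trend, 18 with TMM factors, 21 with no filter, and 18 and 4 at adjusted thresholds of 0.1 and 0.01. Leaving out 1 library at a time gave 1 to 643. For ADAR2_WT minus ADAR2_E396A, 10 genes passed, against 110 with DESeq2, 0 with limma without a trend (1359 at an unadjusted p under 0.05), 39 with TMM factors, 102 with no filter, 3 with a mean of at least 100, and 56 and 0 at thresholds of 0.1 and 0.01, and 0 to 846 with 1 library left out. The numbers pair the samples here because the libraries of a set come from 1 mouse. With no replicate block for donor, 2 genes passed the mean contrast (488 at an unadjusted p under 0.05) and 0 passed ADAR2_WT minus ADAR2_E396A (732). Among the named genes of the mean contrast, no called value changed direction under these alternatives. Direction was not checked for ADAR2_WT minus ADAR2_E396A. Some list medians near 0 did change sign. The sign was kept in 11 of 19 settings, the reported fit included, for the double-stranded RNA-binding and early activation lists. For the recoding targets it was kept in 13 of 19. With 1 library left out, the lone library of that group is assumed to vary like the others and few residual degrees of freedom remain. Genes near the filter, such as n-R5-8s1, are limited by depth.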
